A study of Mus musculus with 6 samples.

Results

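The 10 genes described here encode enzymes and regulators that break down the branched-chain amino acids leucine, isoleucine and valine. They are a named set of 10 of the 24984 genes listed in each count table, taken in pathway order: Bcat2, Bckdha, Bckdhb, Dbt, Bckdk, Ppm1k, Ivd, Mccc1, Hsd17b10 and Aldh6a1. All 10 passed the filter on low counts. RNA came from inguinal white adipose tissue, the subcutaneous fat of the groin, of mice given a high-fat diet. The diet was shared by both groups, which were wild type (n = 3) and Mpst knockout (n = 3). Mpst encodes 3-mercaptopyruvate sulfurtransferase, which takes sulfur from a breakdown product of cysteine. The sources used here do not give strain, sex, age, length of the diet, the allele or the cell types it affects. The labels number the replicates without saying that each is a separate animal, so p-values cover only sample-to-sample spread, part or all of which may be technical.

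Branched-chain amino acids are first stripped of their amino group by an aminotransferase, BCAT2 in mitochondria and BCAT1 in the cytosol. The resulting ketoacids are oxidised by the branched-chain ketoacid dehydrogenase complex, built from E1 (an alpha and a beta subunit), E2 and E3. A kinase, BCKDK, switches the complex off by phosphorylating E1 alpha, and a phosphatase, PPM1K, switches it on. Separate mitochondrial branches then take each carbon skeleton to acetyl-CoA, acetoacetate or propionyl-CoA. White adipocytes express the pathway and can use its carbon for lipid synthesis.

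Mpst itself was counted at 1358, 1394 and 1624 reads in wild type against 3, 10 and 9 in knockout, and each library matched its label. Library totals ranged from 8054560 reads counted in genes (knockout replicate 1) to 22458630. At a Benjamini-Hochberg adjusted p under 0.05, edgeR's quasi-likelihood test called 373 of 14065 genes lower and 669 higher in the knockout, against 877 and 1026 with DESeq2. Adipocyte identity was present in every library: 10 of 10 adipocyte markers were tested and their summed level lay between 38934 and 69279 CPM (read counts scaled to a common normalised library size). Epithelial markers were near absent, at no more than 0.44 summed CPM.

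In the knockout, 3 of the 10 enzymes fell and none rose. They were Bcat2, Bckdha and Hsd17b10, 39.0% to 42.0% lower each. Across all tested genes, 2.65% were called lower, 4.76% higher and 7.41% in either direction. The count of enzymes that fell was 0 when wild-type replicate 2 or any 1 knockout library was left out. In those fits 1 to 5 of all genes were called lower. It was 4 without wild-type replicate 1 or without wild-type replicate 3, where 263 and 1167 of all genes were called lower. Without wild-type replicate 3, Aldh6a1 was also called higher, with 1434 of all genes. With every library kept and before adjustment, 6 of the 10 had a p under 0.05 with a lower level and none with a higher one. The shares of all tested genes were 12.7% and 14.9%. All 3 knockout libraries lay below all 3 wild-type libraries for these 6 enzymes (Bcat2, Bckdha, Bckdk, Ivd, Mccc1 and Hsd17b10), against 15.5% of all tested genes. For none of the 10 did all knockout libraries lie above, against 17.8% of all tested genes. The log2 fold change (knockout minus wild type) was below 0 for 9 of the 10, Aldh6a1 being the exception, against 49.5% of all tested genes. Its median was −0.44, against 0.01 over all tested genes. The set was put together with earlier results of these data known.

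**Figure D1:**
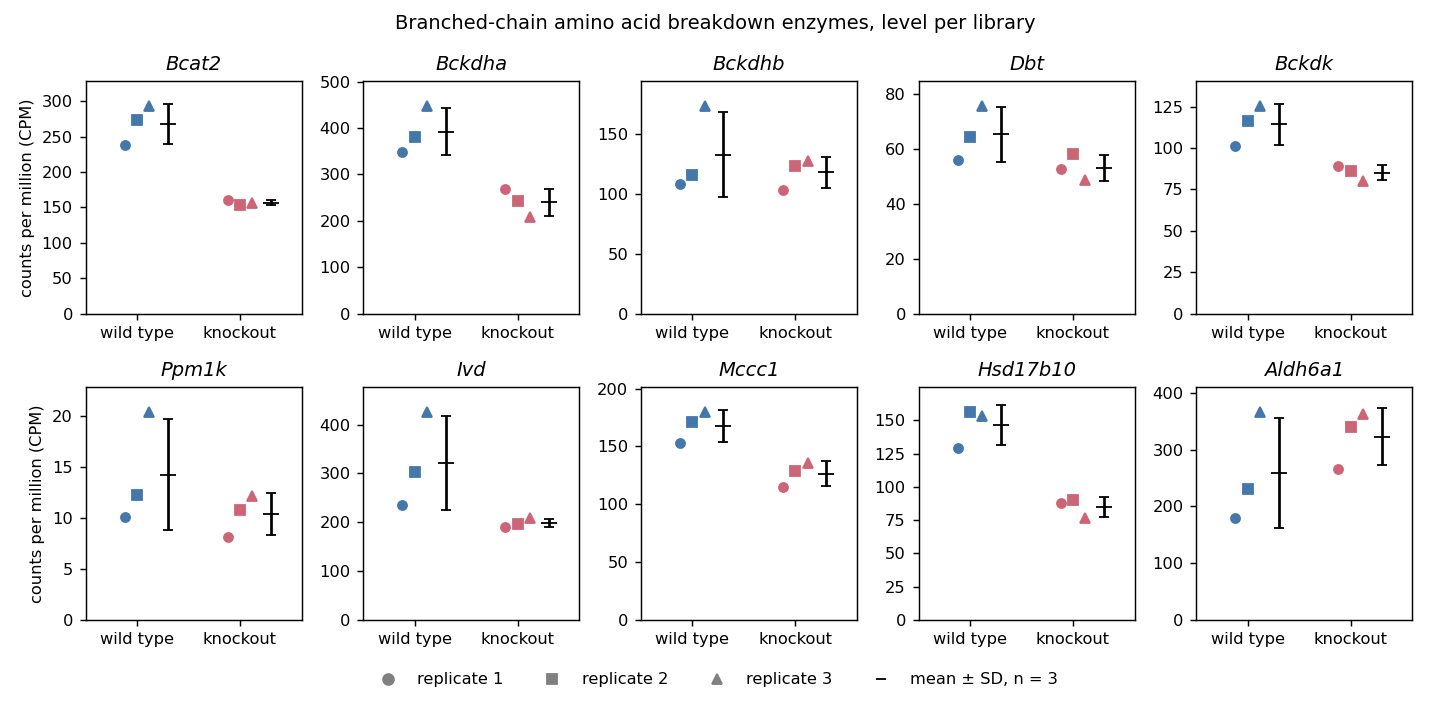
Level of each enzyme in CPM (vertical axes, each from 0) in the 3 wild-type and 3 knockout libraries; symbols mark the replicate number and the bar is the mean ± SD (n = 3). The knockout points lie below the wild-type points for Bcat2, Bckdha, Bckdk, Ivd, Mccc1 and Hsd17b10, and wild-type replicate 3 is the highest wild-type library for every enzyme but Hsd17b10.

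The 250 bases before the first listed start were taken from RefSeq on GRCm38.p6 for the 9 of 10 members matched there (Dbt was not). RefSeq and GENCODE place some starts differently. By GENCODE, 220 bases of the Bckdha window, 51 of the Hsd17b10 window and 40 of the Ivd window lie in exons of the gene itself, so these are not shown. The windows of the other 6 lie before the start in both annotations. Of these, Bcat2 is shown as an enzyme that fell, Mccc1 as one that was lower in every knockout library, and Aldh6a1 as the member with a positive fold change. Capitals mark the CCAAT box (these letters or their reverse complement) and the GC box, whose letters GGGCGG were likewise searched on both strands. AAGGTCA, an extended nuclear receptor site, and an NRF1-type motif were also searched on both strands. No marked motif overlaps another in the windows shown.
Bcat2 promoter, chr7:45569903-45570152, plus strand: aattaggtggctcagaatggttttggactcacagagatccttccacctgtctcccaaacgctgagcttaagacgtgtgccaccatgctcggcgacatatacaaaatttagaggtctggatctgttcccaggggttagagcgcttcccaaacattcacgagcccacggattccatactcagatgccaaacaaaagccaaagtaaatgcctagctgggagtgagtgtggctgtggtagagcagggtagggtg
Mccc1 promoter, chr3:36000679-36000928, minus strand: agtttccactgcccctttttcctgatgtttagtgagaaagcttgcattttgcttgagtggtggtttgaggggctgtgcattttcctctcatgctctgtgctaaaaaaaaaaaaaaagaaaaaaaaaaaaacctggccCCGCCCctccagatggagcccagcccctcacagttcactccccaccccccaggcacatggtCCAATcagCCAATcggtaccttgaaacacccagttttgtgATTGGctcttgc
Aldh6a1 promoter, chr12:84451025-84451274, minus strand: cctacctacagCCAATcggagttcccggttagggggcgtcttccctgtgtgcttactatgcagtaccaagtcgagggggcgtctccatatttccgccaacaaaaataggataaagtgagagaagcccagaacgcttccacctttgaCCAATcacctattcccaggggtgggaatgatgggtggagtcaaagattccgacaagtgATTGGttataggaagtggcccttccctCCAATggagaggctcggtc

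A CCAAT box was present in 5 of the 6 windows that lie before the start in both annotations, Bcat2 being the exception, and a GC box in 3 of them. Over all 9 matched windows the counts were 7 and 4. Of 27025 promoters, taken from RefSeq alone at the same length, 34.5% held a CCAAT box and 32.9% a GC box. Aldh6a1 had 4 CCAAT boxes and Mccc1 had 3. None of the 9 windows held AAGGTCA or the NRF1-type motif, which occurred in 4.05% and 5.09% of all promoters. These are counts of letters and say nothing of binding.

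The first step is catalysed by BCAT2, whose gene lies on chromosome 7 (45570153 to 45589711, plus strand, GRCm38). Bcat2 stood at 238, 273 and 293 CPM in wild-type replicates 1, 2 and 3, against 161, 153 and 156 CPM in knockout replicates 1, 2 and 3. The knockout libraries agreed closely, with a coefficient of variation of 2.58%, against 10.5% in wild type, and the groups did not overlap. The level was 41.5% lower in the knockout (log2 fold change −0.77, SE 0.12, edgeR adjusted p = 0.0158).

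Bcat1, the cytosolic isoenzyme, had the opposite sign without passing the test. Its levels were 33.8, 41.3 and 36.6 CPM in wild type, against 45.9, 51.2 and 45.8 CPM in the knockout (log2 fold change 0.36, SE 0.12, edgeR adjusted p = 0.103). Every knockout library was above every wild-type library. Within a library, Bcat1 had 0.142, 0.152 and 0.125 reads per Bcat2 read in wild type and 0.285, 0.335 and 0.293 in knockout. The log2 ratio moved from −2.85 ± 0.14 to −1.72 ± 0.12 (SD, n = 3 each), a difference of 1.13. The exact two-sided permutation test over samples gave p = 0.1, the smallest that 3 against 3 allows (adjusted p = 0.3 over the 3 ratios tested). Slc25a44, which carries branched-chain amino acids into mitochondria, stood at 62.8 ± 16.9 CPM in wild type, against 56.1 ± 6.96 CPM in the knockout (SD, n = 3) and did not pass (log2 fold change −0.16, SE 0.19, edgeR adjusted p = 0.623).

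**Figure D2:**
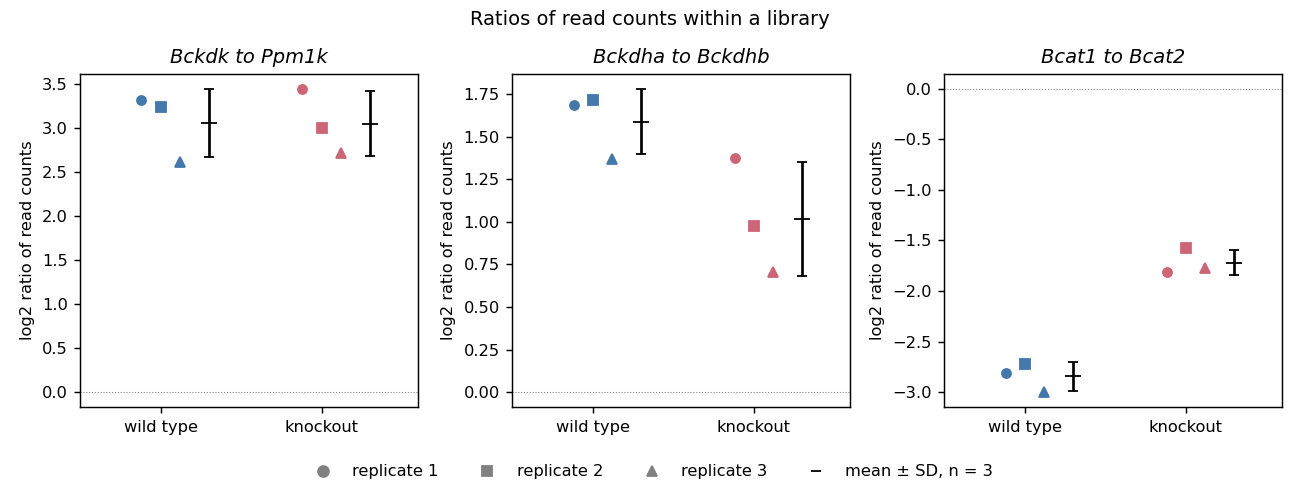
Log2 ratio of read counts within each library (vertical axes) for the kinase to the phosphatase, E1 alpha to E1 beta, and the cytosolic to the mitochondrial aminotransferase; points are libraries and the bar is the mean ± SD (n = 3). The groups are apart for Bcat1 to Bcat2, overlap slightly for Bckdha to Bckdhb and overlap for Bckdk to Ppm1k.

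The subunits of the ketoacid dehydrogenase complex did not all pass together. Bckdha, which encodes the E1 alpha subunit that the kinase phosphorylates, fell. Its levels were 349, 381 and 447 CPM in wild type, against 268, 242 and 208 CPM in the knockout, 39.0% lower (log2 fold change −0.71, SE 0.15, edgeR adjusted p = 0.0312). The lowest wild-type library was above the highest knockout library. Bckdha lies on chromosome 7 (25629946 to 25658981, minus strand), and 61.7% of its annotated exon length is shared with B3gnt8 on the opposite strand. The libraries do not mark strand, so Bckdha reads there are uncertain; B3gnt8 was counted at 61 to 137 reads per library, against 2246 to 9637 for Bckdha.

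Bckdhb, the E1 beta subunit (chromosome 9, 83925145 to 84124240, plus strand), stood at 108, 116 and 173 CPM in wild type, against 103, 124 and 128 CPM in the knockout. The groups overlapped and the gene did not pass (log2 fold change −0.17, SE 0.19, edgeR adjusted p = 0.607). Without wild-type replicate 3 the sign turned, to 0.08. The ratio of Bckdha to Bckdhb reads was 3.21, 3.28 and 2.58 in wild type, against 2.59, 1.96 and 1.63 in knockout. On the log2 scale this was 1.59 ± 0.19 against 1.02 ± 0.34 (SD, n = 3 each), with an exact two-sided permutation p = 0.2 (adjusted p = 0.3). Wild-type replicate 3 and knockout replicate 1 had nearly the same ratio, so a different balance of the E1 transcripts was not shown.

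Dbt, the E2 core that carries the lipoyl arm (chromosome 3, 116513070 to 116549981, plus strand), had 55.8, 64.3 and 75.5 CPM in wild type, against 52.5, 58.0 and 48.6 CPM in the knockout. The groups overlapped, since knockout replicate 2 was above wild-type replicate 1 (log2 fold change −0.30, SE 0.14, edgeR adjusted p = 0.203). Dld, the E3 subunit, is shared with pyruvate dehydrogenase and other complexes and had a positive fold change. It stood at 219, 187 and 215 CPM in wild type, against 273, 267 and 236 CPM in the knockout, with no overlap (log2 fold change 0.32, SE 0.13, edgeR adjusted p = 0.142).

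The kinase and the phosphatase had fold changes of the same sign, and neither passed. Bckdk (chromosome 7, 127904082 to 127910221, plus strand) stood at 101, 117 and 125 CPM in wild type, against 88.9, 86.2 and 80.3 CPM in the knockout, without overlap (log2 fold change −0.43, SE 0.12, edgeR adjusted p = 0.0656). It passed with DESeq2 (adjusted p = 0.0232). Ppm1k (chromosome 6, 57506502 to 57535468, minus strand) was the scarcest of the 10, at 10.1, 12.3 and 20.4 CPM in wild type, against 8.11, 10.7 and 12.2 CPM in the knockout (log2 fold change −0.45, SE 0.27, edgeR adjusted p = 0.32). The log2 fold change of Ppm1k was −0.09 without wild-type replicate 3. Bckdk had 10.05, 9.47 and 6.15 reads per Ppm1k read in wild type and 10.9, 8.01 and 6.58 in knockout. The log2 ratio was 3.06 ± 0.39 in wild type, against 3.06 ± 0.37 in knockout (SD, n = 3 each), a difference of −0.0083 that was smaller than the spread within either group (exact two-sided permutation p = 1). Its sign depended on which library was left out.

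**Figure D3:**
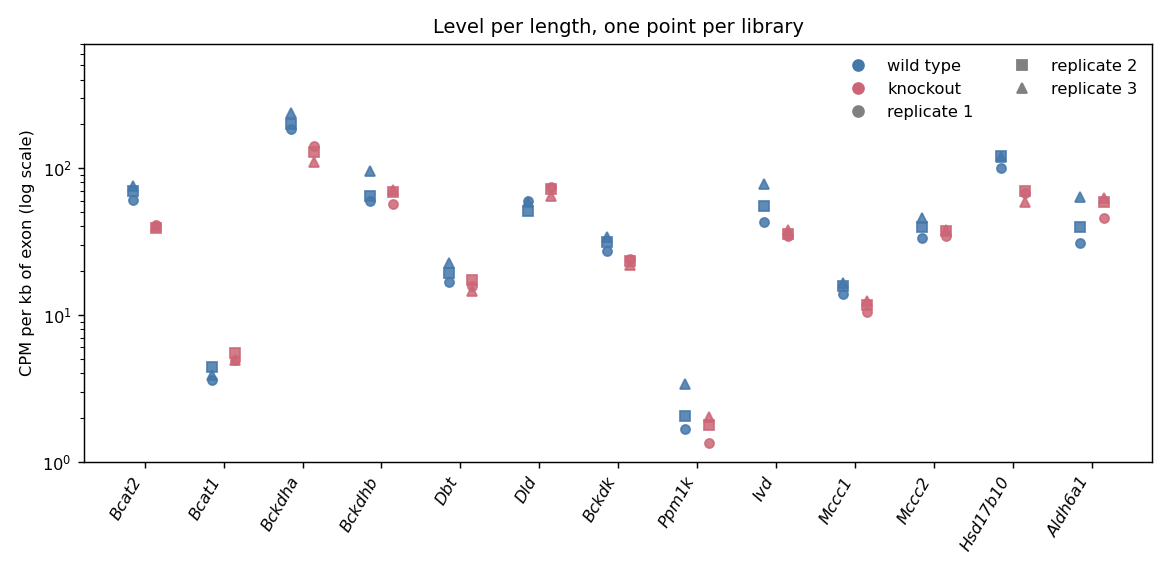
Level per kb of annotated exon length (CPM per kb, log scale) of the 10 enzymes with Bcat1, Dld and Mccc2; each point is a library, blue for wild type and red for knockout. Bckdha is the highest and Ppm1k the lowest of the genes plotted, in both genotypes.

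Per kb of exon, the scale on which genes can be compared, Bckdha was the highest member in both groups, at 207 ± 26.5 CPM per kb in wild type and 126 ± 15.7 CPM per kb in knockout (SD, n = 3). In wild type it was followed by Hsd17b10 at 113 ± 11.5, Bckdhb at 73.5 ± 19.7, Bcat2 at 68.7 ± 7.19 and Ivd at 58.4 ± 17.5 CPM per kb. The last 3 of these did not differ beyond their spread. Aldh6a1 came next at 44.8 ± 16.7, then Bckdk at 31.0 ± 3.31, Dbt at 19.5 ± 2.96, Mccc1 at 15.3 ± 1.27 and Ppm1k at 2.36 ± 0.903 CPM per kb. Aldh6a1 lay within the summed SDs of both Ivd and Bckdk, and Dbt within those of Mccc1. In knockout, Bckdhb (65.5 ± 7.19) and Hsd17b10 (65.5 ± 5.76) were level with each other, and Aldh6a1 lay within the summed SDs of Hsd17b10. Aldh6a1 (55.9 ± 8.73) stood above Bcat2 (40.2 ± 1.04) and Ivd (36.0 ± 1.62 CPM per kb) there. Bcat1 was far below Bcat2, at 3.63, 4.43 and 3.92 CPM per kb in the wild-type libraries. The lengths are those of all annotated exons together, so a gene with long alternative exons reads low on this scale. They also include exons shared with genes on the opposite strand, where reads are uncertain. These were 61.7% of the length for Bckdha, 18.6% for Aldh6a1 and 15.95% for Bcat2.

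In the leucine branch, Ivd and Mccc1 were lower in every knockout library but missed the threshold. Ivd, isovaleryl-CoA dehydrogenase (chromosome 2, 118861954 to 118882909, plus strand), stood at 236, 303 and 426 CPM in wild type. In knockout it was tightly grouped at 190, 197 and 208 CPM (log2 fold change −0.70, SE 0.20, edgeR adjusted p = 0.0686). The coefficient of variation was 30.0% in wild type and 4.50% in knockout. Ivd passed with DESeq2 (adjusted p = 0.00926), without wild-type replicate 1 (−0.87, edgeR adjusted p = 0.0324) and without wild-type replicate 3 (−0.43, edgeR adjusted p = 0.0489).

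Mccc1, the biotin-bearing alpha subunit of 3-methylcrotonyl-CoA carboxylase (chromosome 3, 35959312 to 36000678, minus strand), had 153, 171 and 180 CPM in wild type, against 115, 128 and 136 CPM in the knockout. The groups did not overlap (log2 fold change −0.41, SE 0.12, edgeR adjusted p = 0.0758; DESeq2 adjusted p = 0.0219). Its beta subunit Mccc2 stood at 111 ± 17.5 and 102 ± 4.84 CPM (SD, n = 3; log2 fold change −0.12, SE 0.14, edgeR adjusted p = 0.62). Whether the subunits differed in their response was not tested. Auh, 3-methylglutaconyl-CoA hydratase of the next leucine step, had a log2 fold change of 0.0066 and did not pass (edgeR adjusted p = 0.979).

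Hsd17b10 acts in the isoleucine branch as 2-methyl-3-hydroxybutyryl-CoA dehydrogenase and is also a subunit of mitochondrial ribonuclease P. It lies on the X chromosome (152001845 to 152004442, plus strand). Its levels were 129, 156 and 154 CPM in wild type, against 88.1, 90.4 and 76.4 CPM in the knockout. No knockout library came near the wild-type range, and the level was 42.0% lower (log2 fold change −0.78, SE 0.13, edgeR adjusted p = 0.0173). The 5 other genes of this branch and of steps shared with fatty acid oxidation, Acadsb, Echs1, Hadha, Hadh and Acat1, had log2 fold changes from −0.32 to −0.01 and none passed (edgeR adjusted p from 0.231 to 0.966).

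Aldh6a1, methylmalonate-semialdehyde dehydrogenase of the valine branch (chromosome 12, 84430717 to 84451004, minus strand), was the member with a positive fold change. It stood at 180, 231 and 366 CPM in wild type, against 266, 341 and 363 CPM in the knockout. Wild-type replicate 3 was above every knockout library, while the other wild-type libraries were below all of them. The gene did not pass (log2 fold change 0.32, SE 0.25, edgeR adjusted p = 0.44). Without wild-type replicate 3 the fold change was 0.66 and passed (edgeR adjusted p = 0.0227). Of 4 other valine genes, Acad8, Hibch, Hibadh and Abat, none passed, with log2 fold changes from −0.80 to −0.08 (edgeR adjusted p from 0.0974 to 0.712). The lowest was that of Abat, which passed with DESeq2 (adjusted p = 0.0321) and without wild-type replicate 3 (−1.05, edgeR adjusted p = 0.00654), and was −0.44 without wild-type replicate 2.

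Propionyl-CoA from valine and isoleucine is carboxylated and turned to succinyl-CoA with the help of vitamin B12. The 7 genes of this segment were Pcca, Pccb, Mcee, Mmut, Mmaa, Mmab and Mmadhc. Of these, Mmaa fell and none rose, where 2.65% of all tested genes were called lower and 4.76% higher. Mmaa, a GTPase that helps load the cobalamin cofactor onto methylmalonyl-CoA mutase, went from 34.1, 38.7 and 38.0 CPM in wild type to 23.4, 25.5 and 24.1 CPM in the knockout. This was 34.0% lower (log2 fold change −0.60, SE 0.12, edgeR adjusted p = 0.0259). Pccb, the beta subunit of propionyl-CoA carboxylase, did not pass (log2 fold change −0.48, SE 0.14, edgeR adjusted p = 0.0659), nor did its partner Pcca (−0.14, SE 0.13, edgeR adjusted p = 0.516). Pccb also lay lower in every knockout library, and it passed with DESeq2 (adjusted p = 0.0122). The mutase itself, Mmut, stood at 85.1 ± 14.8 and 88.7 ± 4.45 CPM (SD, n = 3; log2 fold change 0.06, SE 0.14, edgeR adjusted p = 0.823).

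Over all 23 other pathway genes, 1 fell and none rose, with a median log2 fold change of −0.16, where 2.65% of all tested genes were called lower and 4.76% higher. Before adjustment, 5 had a p under 0.05 with a lower level and 2 with a higher one, against 12.7% and 14.9% of all tested genes. Klf15, a transcription factor known to raise Bcat2 transcription in muscle, was among those that did not pass. It had 55.5, 56.7 and 112 CPM in wild type, against 60.2, 53.3 and 64.9 CPM in the knockout (log2 fold change −0.33, SE 0.26, edgeR adjusted p = 0.442). Wild-type replicate 3 alone was high.

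**Figure D4:**
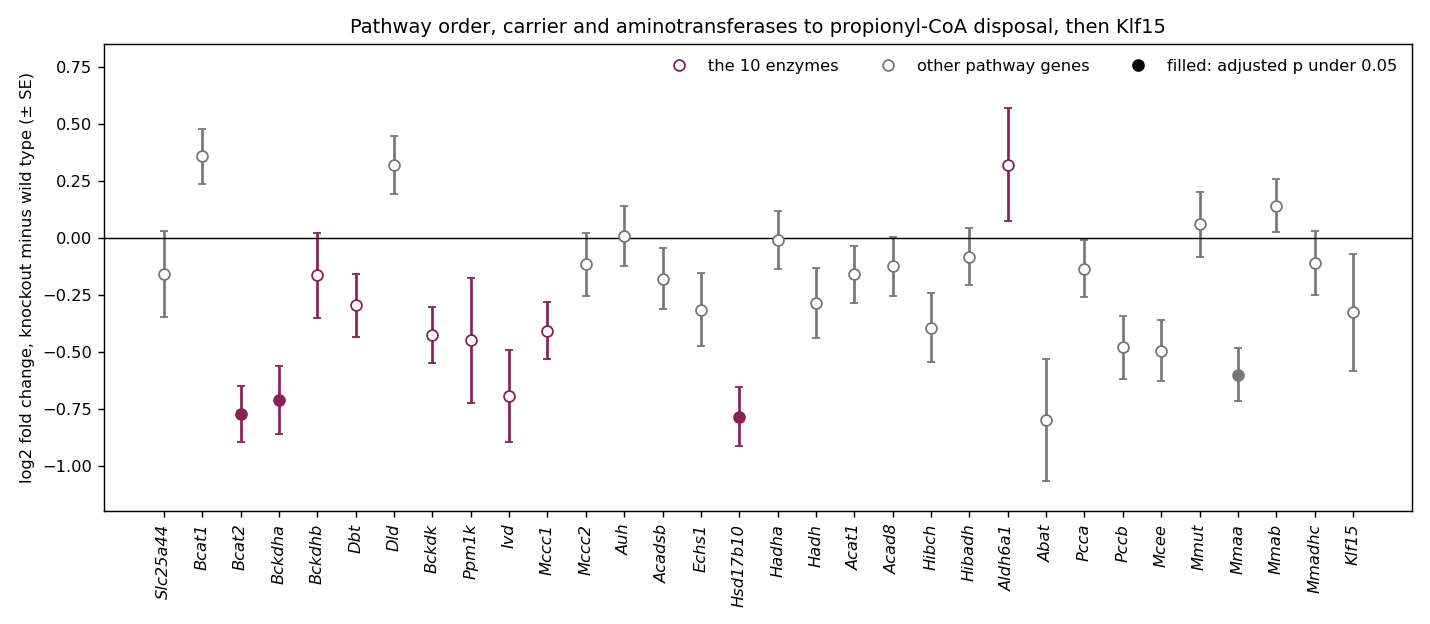
Log2 fold change (knockout minus wild type, ± SE) of the 10 enzymes and of other pathway genes in pathway order; filled symbols passed an adjusted p under 0.05. Bcat2, Bckdha, Hsd17b10 and Mmaa are filled, and all 4 lie below 0.

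Within the wild-type group, replicate 1 was the lowest library for all 10 enzymes and replicate 3 the highest for 9 of them. Replicate 1 was also the lowest for 19 of the 23 other pathway genes and for 33.6% of all tested genes. Replicate 3 was the highest for 15 of the 23 and for 41.5% of all tested genes. The level in replicate 3 was 1.18 to 2.04 times that in replicate 1, the largest ratios being 2.04 for Aldh6a1, 2.03 for Ppm1k and 1.81 for Ivd. Relative to the wild-type mean, the average log2 level of the 10 was −0.26, −0.03 and 0.29 in wild-type replicates 1, 2 and 3. In knockout it was −0.49, −0.37 and −0.40. The other pathway genes averaged −0.17, 0.04 and 0.13 in wild type, against −0.14, −0.16 and −0.21 in knockout. For these genes wild-type replicate 1 lay within the knockout range. The closest profile to Bcat2 within the set was that of Hsd17b10, with a root mean square difference of 0.09 log2 units over the 6 libraries after centring each gene. Among all tested genes the 3 closest to Bcat2 were Abhd14b (0.05), Proca1 (0.06) and Ctif (0.06 log2 units).

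Cell type markers moved with the genotype. Of 10 macrophage markers, 7 rose and none fell, where 4.76% of all tested genes were called higher and 2.65% lower. Their summed level was 494 to 984 CPM in wild type, against 1679 to 1783 CPM in the knockout. Within wild type the sum was 984, 863 and 494 CPM in replicates 1, 2 and 3, against 1559, 1824 and 2261 CPM for the 10 enzymes. Of the 10 adipocyte markers, 3 fell and none rose. Their median log2 fold change was −0.37, with 9 below 0 and Lep above (0.22). Cidec (−0.06) and Pparg (−0.17) were near 0. The sums were 58728 to 69279 CPM in wild type, against 38934 to 47852 CPM in the knockout. Fabp4 (mean 32409 CPM in wild type, 24571 CPM in knockout) and Cfd (9710 and 2324 CPM) weighed most in this difference. In bulk tissue, fewer cells of a type and less RNA per cell cannot be told apart. The part of tissue composition in the enzymes' fold changes was not tested. Levels relative to an adipocyte transcript, a scale added after the values were seen, depended on the transcript. Per 1000 reads of Adipoq, whose own log2 fold change was −0.35, Bcat2 had 48.3, 47.3 and 68.9 reads in wild type, against 37.9, 38.4 and 44.2 in knockout. Bcat2, Bckdha and Hsd17b10 then lay lower in every knockout library and the other 7 overlapped, where 2.32% of all tested genes were lower without overlap. The log2 fold changes of Lipe, Pnpla2, Retn and Cfd were −0.70, −0.72, −0.98 and −2.06. Relative to these, none of the 10 lay lower in every knockout library. The shares of all tested genes that did were 0.462%, 0.483%, 0.156% and 0.0142%, in that order. Higher in every knockout library were 3, 2, 5 and 10 of the enzymes, against 67.6%, 53.4%, 81.3% and 96.9% of all tested genes. Over the 10 adipocyte markers as reference, Hsd17b10 lay lower without overlap with 6, Bcat2 and Bckdha with 5 each. The share of all tested genes lower without overlap ran from 0.0142% with Cfd to 17.4% with Lep. The 10 references are therefore not equal, and these counts depend on which were chosen.

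**Figure D5:**
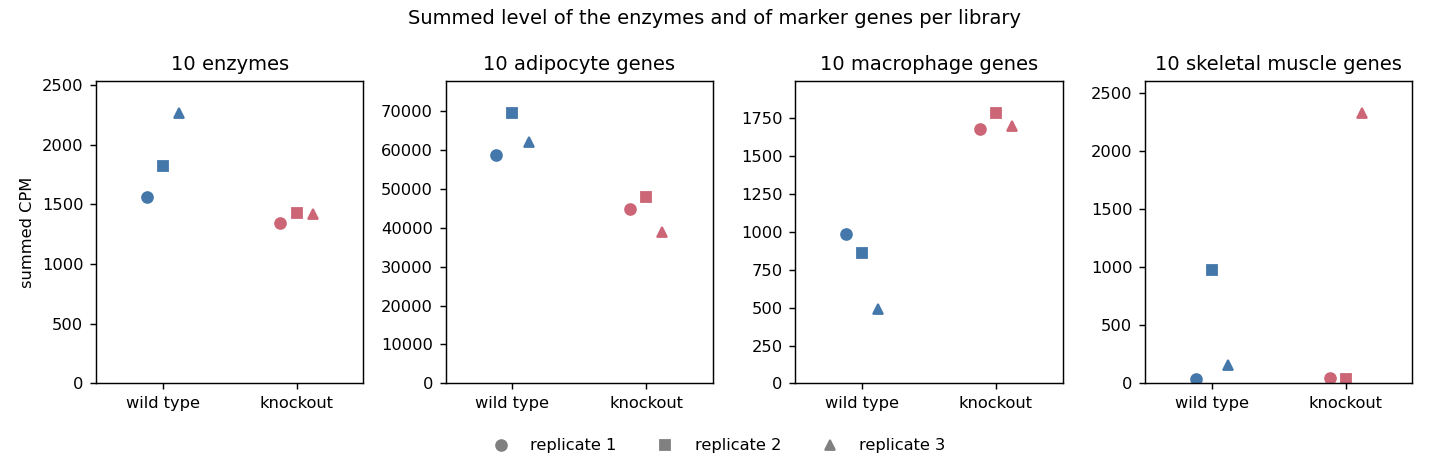
Summed CPM per library (vertical axes, each from 0) of the 10 enzymes and of 10 marker genes each for adipocytes, macrophages and skeletal muscle; symbols mark the replicate number. Macrophage sums are higher and adipocyte sums lower in every knockout library, and muscle transcripts are high in wild-type replicate 2 and knockout replicate 3.

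Transcripts of skeletal muscle, a tissue that also expresses this pathway, were high in 1 library of each group; their part in the enzymes' values was not tested. The 10 muscle markers summed to 980 CPM in wild-type replicate 2 and 2323 CPM in knockout replicate 3, against 37.4 to 155 CPM in the other 4 libraries. Without both libraries the log2 fold changes were −0.76 for Bcat2, −0.64 for Bckdha, −0.66 for Hsd17b10 and −0.56 for Mmaa. None of the 10 enzymes was then called (edgeR adjusted p = 0.278, 0.309 and 0.278 for the 3), in a fit of 2 against 2 that called Mpst and no other gene. The calls of Bcat2, Bckdha, Hsd17b10 and Mmaa were also lost when wild-type replicate 2 or any 1 knockout library was left out. In those 4 fits 1 to 5 genes were called lower and 0 to 41 higher over all genes, and the log2 fold changes of Bcat2, Bckdha and Hsd17b10 stayed between −0.83 and −0.62.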

How the data were processed

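Per the labels' protocols, total RNA of inguinal fat was made into TruSeq RNA v2 libraries, which do not mark strand, and read as 75 bp single ends. The submitters' processing notes name HISAT2 2.1.0, HTSeq 0.13.5, DESeq2 1.26 and mm10; the sources used here do not name the annotation or the counter's settings. The values as deposited are whole-number read counts per gene symbol, not normalised. The 5 summary lines of the counter were left out; reads in no feature were 8.85% to 14.7% of the reads placed uniquely, and ambiguous reads 1.63% to 1.83%.

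Counts were analysed here in R 4.3.3 with edgeR 4.0.16 (filterByExpr, trimmed mean of M-values, robust quasi-likelihood F test, all 6 libraries, no covariates). P-values were adjusted by Benjamini-Hochberg over 14065 genes, with calls under 0.05. The SE was derived from the fold change and its F statistic. The test was also run on simulated counts with planted changes, drawn for each gene on its own. These held no shift shared by the genes of a library, so they do not bear on the dependence on single libraries. Ratios used an offset of 0.5 reads. Members and lists were chosen with earlier results of these data known. Named genes are Mpst, the 10 members, called pathway genes, 8 fixed partners (Bcat1, Dld, Mccc2, Pcca, Pccb, Mmut, Slc25a44 and Klf15) and the 3 profiles nearest to Bcat2; others are named with their branch, and 1 pathway gene is counted but not reported singly here. Positions and exon lengths are from GENCODE M21 (GRCm38, the assembly of mm10), matched by symbol. Other marker lists were progenitor (2 of 8 rose), endothelial (0 of 6 called), lymphocyte (0 of 7) and beige adipocyte genes (0 of 6). Of the 8 progenitor genes, 3 had a log2 fold change below 0, the lowest being −2.10 for Pi16. Over all tested genes, 4.76% were called higher and 7.41% in either direction. Transcripts of Bckdhb, Bckdk, Ppm1k and Ivd share stretches of up to 212 bp at 95% identity or more with transcripts of other loci. Reads there are uncertain, as are those of exons overlapping genes on the opposite strand. Such genes are B3gnt8 (Bckdha), Bbof1 (Aldh6a1, 18.6% of its exon length) and 0610005C13Rik (Bcat2, 15.95%). Mccc1 overlaps B230207O21Rik (2.93%), Mccc1os (1.81%) and Gm15952 (0.86%). No replicate pair agreed within sampling noise (chi-square per degree of freedom 7.94 to 124).

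Alternatives were relative log expression and upper-quartile scaling, limma-voom (limma 3.58.1), DESeq2 1.42.0, a block on replicate number, a 10 CPM minimum mean, no filter on low counts, no robust estimation, each library left out, a ratio offset of 2 and, added after seeing the data, leaving out both libraries high in muscle transcripts and using each adipocyte marker as a reference.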

Additional observations from a re-analysis of the deposited data

How the results depend on the processing

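Bcat2, Bckdha, Hsd17b10 and Mmaa were called in all 8 refits that kept every library, with log2 fold changes from −0.79 to −0.75, −0.73 to −0.70, −0.80 to −0.77 and −0.62 to −0.58. With DESeq2, 6 members and 4 other pathway genes were called lower (877 lower and 1026 higher over all genes; 53.9% of calls higher, against 64.2%). The replicate block called 6 members lower, 3 other pathway genes lower and 1 higher, and 1289 genes lower and 1387 higher (51.8% of calls higher). Whether same-numbered libraries pair could not be decided from 3 libraries per group. Their deviations from the group means correlated at 0.17, −0.099 and 0.30 for replicates 1, 2 and 3. Knockout replicates 1 and 3 were closest to the wild-type library of the same number, while knockout replicate 2 was closest to wild-type replicate 1 (0.36). When libraries were left out in turn, 0 to 4 members were called lower and 0 to 1 higher, 0 to 3 other pathway genes lower and none higher, and 1 to 1167 genes lower and 0 to 1434 higher. Without both libraries high in muscle transcripts these counts were 0 members, 0 other pathway genes, and 1 gene lower and 0 higher.

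Some log2 fold changes changed sign. Those of Bckdhb, Mccc2, Acad8, Hibadh, Slc25a44 and Klf15 did so only without wild-type replicate 3. With all libraries kept, Klf15 was at −0.33. Auh was −0.0060 with relative log expression and −0.0094 with DESeq2, Hadha was 0.0092 at a minimum of 10 CPM, and Mmut was −0.0049 without the libraries high in muscle transcripts. With each library left out, log2 fold changes ranged from −0.29 to 0.081 for Bckdhb, −0.22 to 0.0083 for Mccc2, −0.19 to 0.0094 for Acad8, −0.16 to 0.0012 for Hibadh, −0.071 to 0.054 for Hadha, −0.076 to 0.094 for Auh, −0.040 to 0.21 for Mmut, −0.29 to 0.088 for Slc25a44 and −0.50 to 0.090 for Klf15. The log2 ratio differences ranged from −0.23 to 0.16 (Bckdk to Ppm1k), −0.75 to −0.42 (Bckdha to Bckdhb) and 1.05 to 1.19 (Bcat1 to Bcat2). The cause of these changes was not tested. Ppm1k had the fewest reads of the 10 enzymes, down to 68 in knockout replicate 1.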
